A study of Mus musculus with 8 samples.

Results

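The genes Gata1, Gata2, Tal1, Lmo2, Ldb1, Zfpm1, Nfe2, Gfi1b, Myb and Bcl11a encode the transcription factors and cofactors that direct red cell formation. These 10 genes were taken by symbol from the gene tables and from the table of ChIP-seq sites, where a site was assigned to the gene that the table gave as its closest transcription start site (TSS). Of the 10 genes, 8 were among the 11364 genes listed with an expression value, and 7 were the closest TSS of 27 of the 5551 consensus sites. Gata2 and Bcl11a were not listed with an expression value, and Gata2, Bcl11a and Myb had no site.

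The study examined KLF1, an erythroid zinc finger transcription factor, and its mutant E339K, the mouse form of a human change that causes congenital dyserythropoietic anemia type IV. K1 cells are an immortalised Klf1-/- line from mouse fetal liver. K1-E339K-ER cells are the same line with the mutant protein fused to a modified estrogen receptor domain, called CDA-KLF1-ER in the labels, and K1-ER cells carry the wild type fusion, KLF1-ER, in the same Klf1-/- background. The drug 4-hydroxytamoxifen (4-OHT) moves either fusion into the nucleus. Because the cells are Klf1-/-, binding was measured with no endogenous KLF1 present. KLF1-E339K-ER binding was measured in 1 ChIP library from cells given 200 nM 4-OHT for 3 h, with 1 input library, and the material came from pooled samples of 1 clone. New RNA, labelled with 4-thiouridine (4sU, 500 µM for 30 min per the labels, while the methods of the study give another dose and time), was sequenced from 3 K1 libraries, of which 2 were labelled as given 4-OHT at 200 nM and the third as given ethanol, the vehicle, and from 3 K1-E339K-ER libraries given 4-OHT at 200 nM. Both fusions were expressed from a retroviral vector in a cell line, so neither was under the control of the Klf1 gene. The KLF1-ER libraries are of an earlier series and only their pooled values in the tables were used here.

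GATA1 binds GATA sequences and works with its cofactor FOG1, the product of Zfpm1. TAL1 binds E-boxes as a dimer with an E protein and is joined through LMO2 and LDB1 to GATA1 in one complex, and LDB1 can bring distant elements into contact with promoters. KLF1 binds CACCC boxes, which often lie beside GATA sites in erythroid genes, so the genes of these factors form a network with many mutual inputs.

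The sequences at the centre of the sites were read from the mm9 genome, plus strand, to show the letters under the binding values that follow. For each gene the site with the highest value of either protein is shown, with the 2 sites of the largest difference in each direction, and the second site of Tal1 and of Gfi1b, a second site of Ldb1 and the Gata1 start site were added after their values were seen. Capitals mark 9-letter KLF matches on either strand, either the purine form with A or G at position 5 (NGGGAGGGG, NGGGAGTGG, NGGGGGGGG or NGGGGGTGG) or the pyrimidine form with C or T there (NGGGCGGGG, NGGGCGTGG, NGGGTGGGG or NGGGTGTGG). Positions are counted from 1 at the 5′ end of the G-rich strand.
Gata1 upstream, chrX:7548567-7548667: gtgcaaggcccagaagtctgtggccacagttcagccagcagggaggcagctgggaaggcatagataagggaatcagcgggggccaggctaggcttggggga
Gata1 start site, chrX:7545037-7545133: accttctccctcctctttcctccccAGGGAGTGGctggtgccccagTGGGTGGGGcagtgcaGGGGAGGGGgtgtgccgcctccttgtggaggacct
Zfpm1 intron, chr8:124820596-124820696: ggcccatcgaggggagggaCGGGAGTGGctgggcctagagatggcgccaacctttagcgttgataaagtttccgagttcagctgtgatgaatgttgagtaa
Tal1 site higher with KLF1-ER, chr4:114729081-114729181: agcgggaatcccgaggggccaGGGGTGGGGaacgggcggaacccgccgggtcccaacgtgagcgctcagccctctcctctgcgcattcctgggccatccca
Tal1 site higher with KLF1-E339K-ER, chr4:114729511-114729611: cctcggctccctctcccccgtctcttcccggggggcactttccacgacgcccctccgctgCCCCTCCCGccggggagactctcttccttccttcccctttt
Lmo2 distal, chr2:103734049-103734149: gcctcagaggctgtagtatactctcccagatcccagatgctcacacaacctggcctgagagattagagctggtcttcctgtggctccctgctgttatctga
Ldb1 upstream, chr19:46120526-46120626: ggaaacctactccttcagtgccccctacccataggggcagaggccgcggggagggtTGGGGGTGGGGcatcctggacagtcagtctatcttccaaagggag
Ldb1 internal start site, chr19:46114117-46114217: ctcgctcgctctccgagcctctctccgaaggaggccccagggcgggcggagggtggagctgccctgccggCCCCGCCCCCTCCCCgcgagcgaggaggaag
Nfe2 5′ end, chr15:103088932-103089032: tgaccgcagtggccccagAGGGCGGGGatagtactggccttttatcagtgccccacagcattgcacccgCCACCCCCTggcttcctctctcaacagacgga
Nfe2 internal start site, chr15:103083248-103083348: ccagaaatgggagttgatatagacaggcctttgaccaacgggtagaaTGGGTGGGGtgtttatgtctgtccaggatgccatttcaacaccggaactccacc
Gfi1b site higher with KLF1-E339K-ER, chr2:28473210-28473310: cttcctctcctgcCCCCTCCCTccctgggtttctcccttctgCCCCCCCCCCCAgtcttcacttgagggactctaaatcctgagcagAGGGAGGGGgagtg
Gfi1b site higher with KLF1-ER, chr2:28472521-28472621: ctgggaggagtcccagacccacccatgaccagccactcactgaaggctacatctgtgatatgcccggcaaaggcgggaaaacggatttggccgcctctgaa

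The windows of Gata1 upstream, Lmo2 distal and the Gfi1b site higher with KLF1-ER held neither form. Over the whole site, Gata1 upstream held 2 purine matches and 1 pyrimidine match, and Lmo2 distal held 1 purine match. The Gata1 start site window held 2 purine matches, AGGGAGTGG and GGGGAGGGG, on either side of the pyrimidine match TGGGTGGGG. The same 9 letters, TGGGTGGGG, lay 1 bp from the midpoint of the internal Nfe2 site. In Ldb1 the purine match TGGGGGTGG overlapped the pyrimidine match GGGGTGGGG in the upstream window, and the purine match GGGGAGGGG overlapped the pyrimidine match GGGGCGGGG at the internal start site. A match describes the letters in these windows and does not show where a protein was in contact.

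Each site carried 1 concentration per protein, the log2 of the mean normalised ChIP read count, with no replicate values. Concentrations of KLF1-ER at the 27 sites ran from -0.09 to 8.03 with a median of 4.64, and those of KLF1-E339K-ER ran from 0.05 to 8.90 with a median of 5.49. A site was counted as favouring a protein where the concentrations differed by at least 1 on the log2 scale, or 2-fold. By this count 17 of the 27 sites favoured KLF1-E339K-ER (62.96%), against 61.5% of all sites. KLF1-ER was favoured at 5 sites (18.52%), against 28.7% of all sites, and 5 sites were less than 2-fold apart, against 9.84% of all sites. The share that favoured the mutant was therefore close to that of the whole table. The median difference, KLF1-E339K-ER minus KLF1-ER, was 1.94 at these sites and 2.60 over all sites. With no replicate values, no test was made here and no error could be given for any of these differences. The authors' own test of these sites was not used. The KLF1-ER values came from libraries of an earlier series, so a difference between the proteins cannot be told apart from one between the series.

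Sites with substantial reads of both proteins were frequent. Both concentrations were at least 5 at 9 of the 27 sites (33.3%), against 6.4% of all sites, and 4 of these 9 were of Zfpm1, 2 of Gata1, 2 of Nfe2 and 1 of Ldb1. KLF1-ER was at its lowest listed value, -0.09, at 3 sites (11.1%) against 25.7% of all sites, and KLF1-E339K-ER was at its lowest listed value at 0 of the 27 against 2.65% of all sites. A difference against the lowest listed value is given below as a lower bound. KLF1-ER values of 0.50 and 0.91 were the next listed levels above -0.09, so the size of a fold against them is uncertain.

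**Figure D1:**
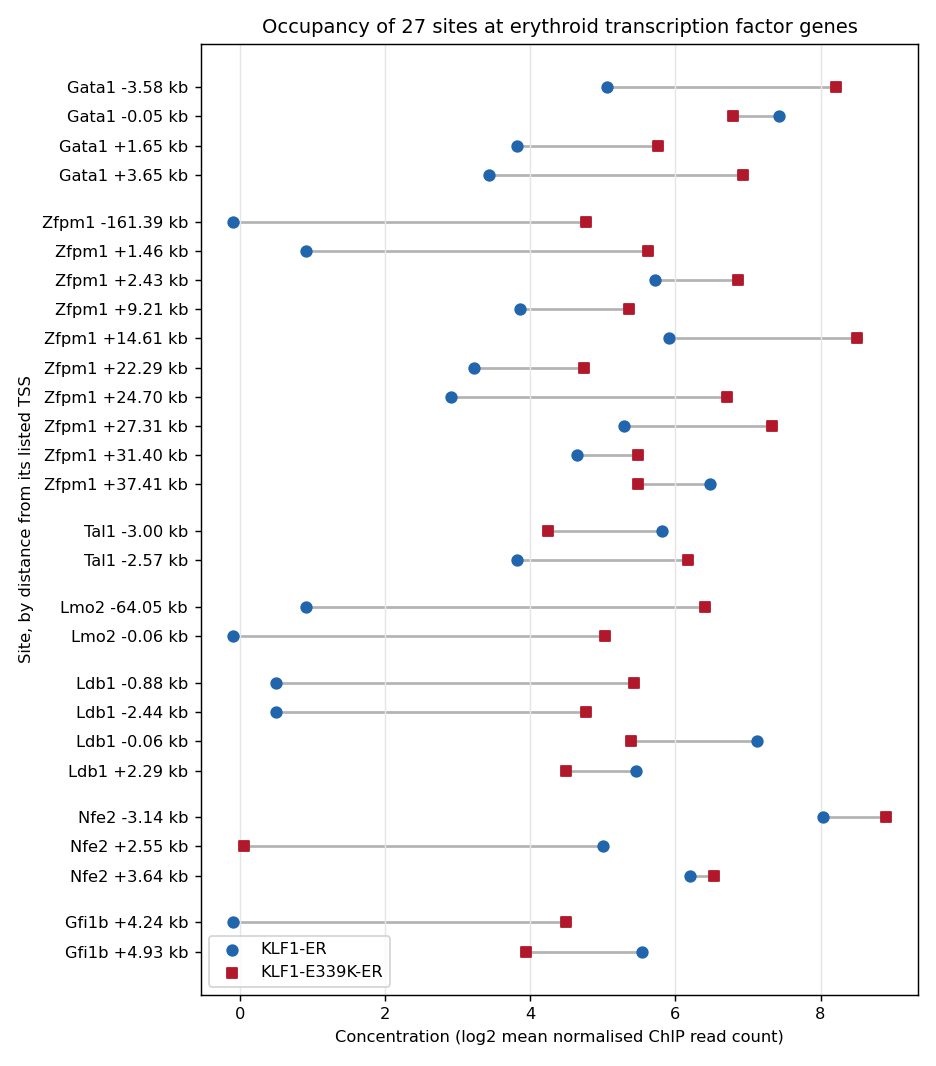
Concentration of KLF1-ER (circles) and KLF1-E339K-ER (squares) at each of the 27 sites, in log2 mean normalised ChIP reads, with sites ordered along each gene and labelled by the distance from the listed TSS. The square lies to the right by 1 or more at 17 sites and to the left by 1 or more at 5, and Tal1, Ldb1, Zfpm1 and Gfi1b have sites of both kinds.

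**Figure D2:**
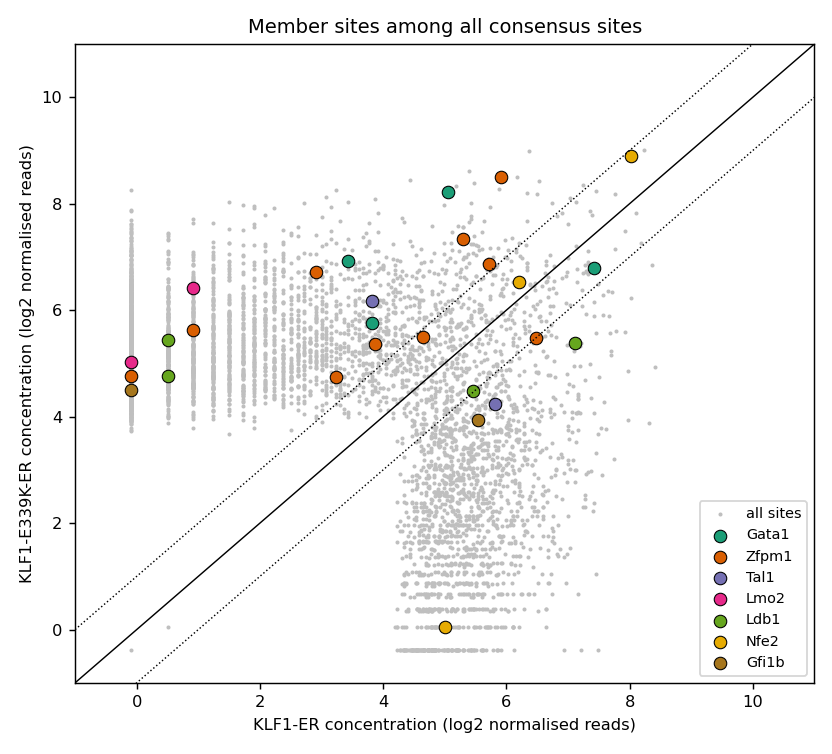
KLF1-ER against KLF1-E339K-ER concentration (log2 normalised reads) for all 5551 sites in grey and the 27 sites in colour by gene, with the line of equality and dotted lines at a 2-fold difference. The sites of Gata1, Zfpm1 and Nfe2 include 8 of the 9 with both concentrations at least 5, and Lmo2 lies at the left edge.

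Gata1, which encodes the GATA factor required for red cell maturation, had 4 sites on chromosome X, of which 3 favoured KLF1-E339K-ER. The site 3581.5 bp upstream of the listed TSS (7548400 to 7548835, in an intron of a longer annotated transcript) had concentrations of 5.06 for KLF1-ER and 8.22 for KLF1-E339K-ER, an 8.94-fold difference. Its mutant concentration ranked 16 of 5551. The site at the TSS (7544865 to 7545301, midpoint 47 bp upstream) had 7.43 and 6.79, which was less than 2-fold apart, and its KLF1-ER value ranked 38. This start site was thus among the highest of the table for the wild type protein and was also bound by the mutant. Downstream of the TSS, the site at 1651.5 bp (7543230 to 7543539) had 3.82 and 5.76, and the site at 3648.5 bp (7541232 to 7541543) had 3.43 and 6.93, or 11.3-fold. The latter spanned the start of another annotated Gata1 transcript. Of the 4 sites, the one at the TSS was the only one where the mutant was not favoured.

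Zfpm1, which encodes the GATA1 cofactor FOG1, had 10 sites on chromosome 8, and 9 of them lay inside the gene within 35.952 kb. KLF1-E339K-ER was favoured at 7 of these 9. The highest was 14605.5 bp downstream of the TSS (124820306 to 124820987), with 5.91 for KLF1-ER and 8.50 for KLF1-E339K-ER, a 6.02-fold difference and rank 5 of all mutant concentrations. The first site in the gene, at 1463.5 bp (124807239 to 124807770), had 0.91 and 5.62, or 26.2-fold, whereas the next, at 2433 bp, had 5.72 and 6.86, or 2.20-fold. These neighbouring sites differed widely in KLF1-ER while the mutant values were closer together. The KLF1-ER value of 0.91 was close to the lowest listed, so the size of the 26.2-fold difference is uncertain. Further into the gene, the site at 24699 bp had 2.91 and 6.71, or 13.9-fold, and the site at 27312.5 bp had 5.29 and 7.33, or 4.11-fold. The sites at 9212 bp (3.86 and 5.36) and 22288 bp (3.23 and 4.74) were 2.83-fold and 2.85-fold apart. At 31396 bp the concentrations of 4.64 and 5.49 were less than 2-fold apart. The last, at 37415 bp (124843298 start), had 6.48 and 5.48 and lay on the threshold with a difference of -1.0. This last site was the only one in the gene with more KLF1-ER than mutant, and it had the highest KLF1-ER value of the gene.

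The remaining Zfpm1 site lay 161389 bp upstream of the TSS (124644492 to 124644812), with -0.09 for KLF1-ER and 4.77 for KLF1-E339K-ER, at least 29.0-fold. It was in an intron of the annotated transcript Gm20388, and in the GENCODE M1 annotation its closest protein-coding TSS was that of Banp. Another 2 sites inside Zfpm1 were assigned to Trhr2 and were not counted: 39.65 kb from the 5′ end the concentrations were 3.00 and 6.63, and 44.262 kb from it they were 0.91 and 5.77. Both of these favoured the mutant as well.

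**Figure D3:**
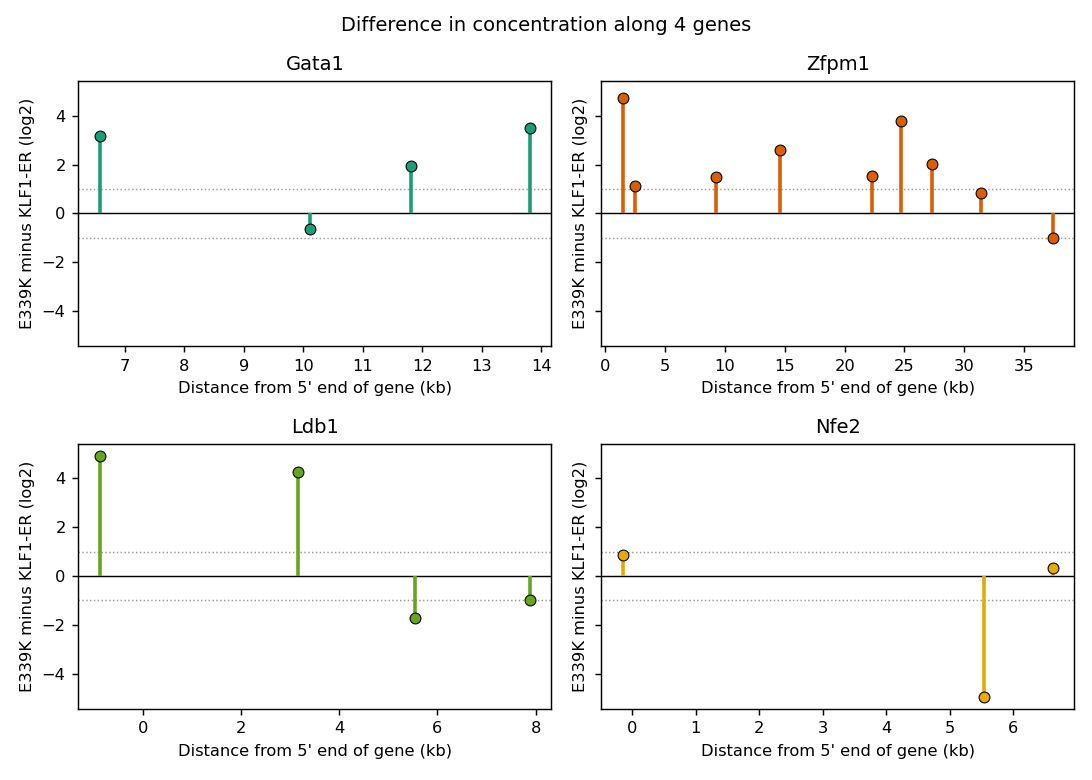
Difference in concentration, KLF1-E339K-ER minus KLF1-ER on the log2 scale, against distance in kb from the annotated 5′ end for Gata1, Zfpm1 (the site 161389 bp upstream left out), Ldb1 and Nfe2, with dotted lines at 1 and -1. Zfpm1 is above 0 at 8 of 9 sites, and the low points of Gata1, Ldb1 and Nfe2 (-0.64, -1.73 and -4.95) are at sites that span a start site within the gene.

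Tal1, the basic helix-loop-helix factor of the complex, had 2 sites on chromosome 4 with midpoints 430.5 bp apart and opposite directions. The site 3001 bp upstream of the listed TSS (114728956 to 114729306) had 5.82 for KLF1-ER and 4.24 for KLF1-E339K-ER, a difference of -1.58. It spanned the start of a longer annotated Tal1 transcript, 100 bp from its midpoint. The site 2570.5 bp upstream (114729398 to 114729725) had 3.82 and 6.18, or 5.13-fold the other way. In their printed windows the first held the pyrimidine match GGGGTGGGG and the second held the purine match CGGGAGGGG.

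Lmo2, the LIM bridging protein, was bound mainly by the mutant. The site 64053 bp upstream of the TSS (chromosome 2, 103733891 to 103734307, intergenic) had 0.91 for KLF1-ER and 6.41 for KLF1-E339K-ER, a 45.3-fold difference and the largest of the 27 as listed, with 3 of the others known only as lower bounds. The KLF1-ER value of 0.91 was close to the lowest listed, so the size of this fold is uncertain. The site 63.5 bp upstream (103809487 to 103809814) had -0.09 and 5.03, at least 34.8-fold. It spanned the start of an Lmo2 transcript inside the annotated gene. Neither window within 50 bp of the midpoint held a KLF match of either form, and 1 purine match lay elsewhere in the distal site. No site of Lmo2 favoured KLF1-ER.

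Ldb1, the LIM-binding adaptor, had 4 sites on chromosome 19. The site 875 bp upstream of its 5′ TSS (46120416 to 46120736, in an intron of the neighbouring gene Pprc1) had 0.50 for KLF1-ER and 5.43 for KLF1-E339K-ER, or 30.5-fold. The site 2438 bp upstream of an internal TSS (46116391 to 46116707) had 0.50 and 4.77, or 19.3-fold. The other two were higher with the wild type protein. At the internal TSS (46113992 to 46114342, midpoint 56 bp upstream) the concentrations were 7.12 and 5.39, a difference of -1.73, and the KLF1-ER value ranked 88. The site at 2290.5 bp downstream of its TSS had 5.46 and 4.49, a difference of -0.97, just under the threshold. KLF1-ER varied over 6.62 log2 units among the Ldb1 sites and KLF1-E339K-ER over 0.94. The KLF1-ER values of 0.50 were close to the lowest listed, so the size of the 30.5-fold and 19.3-fold differences is uncertain.

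Nfe2, the erythroid subunit of the factor NF-E2 that binds globin control elements, was the only gene with a favoured site where none favoured the mutant. Its 3 sites on chromosome 15 each spanned an annotated Nfe2 start. The site at the 5′ end (103088697 to 103089268, 3135.5 bp upstream of the listed TSS) had 8.03 for KLF1-ER and 8.90 for KLF1-E339K-ER, less than 2-fold apart, with ranks of 7 and 3 among all sites. The site 2549 bp downstream of the listed TSS (103083140 to 103083456) had 5.00 and 0.05, a difference of -4.95 or 30.9-fold in favour of KLF1-ER. The value of 0.05 was the second lowest listed for the mutant. At 3638.5 bp (103081997 to 103082420) the concentrations were 6.20 and 6.53. Thus both proteins were high at the outer sites and the mutant was close to its lowest value at the site between them. KLF1-E339K-ER varied over 8.85 log2 units across the 3 sites and KLF1-ER over 3.03.

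Gfi1b, a zinc finger repressor of the erythroid and megakaryocytic lineages, had 2 intronic sites on chromosome 2 in opposite directions. The site 4241.5 bp downstream of the TSS (28473105 to 28473416) had -0.09 for KLF1-ER and 4.50 for KLF1-E339K-ER, at least 24.1-fold. At 4931 bp (28472414 to 28472728) they were 5.54 and 3.94, a difference of -1.60. The first window held 6 purine matches, most of them overlapping in a run of G, and the second held none of either form.

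No site was assigned to Gata2, the GATA factor of progenitors, to Myb, a factor of proliferating progenitors, or to Bcl11a, a repressor of embryonic and fetal globin genes. The nearest site to a Gata2 TSS was 76.755 kb upstream, assigned to Rpn1, with 1.23 for KLF1-ER and 6.36 for KLF1-E339K-ER. The nearest to Bcl11a was 182.748 kb upstream, assigned to Papolg, with 6.41 and 2.14, and the nearest to Myb was 981.956 kb away. None of these 3 sites lay in the gene concerned.

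By gene, 6 of the 8 listed members had a site that favoured KLF1-E339K-ER, against 17.8% of all listed genes, and 5 had one that favoured KLF1-ER, against 10.0%. Any site was present for 7 of the 8, against 26.6% of listed genes. Tal1, Ldb1, Zfpm1 and Gfi1b had sites of both kinds, Gata1 and Lmo2 only of the mutant, and Nfe2 only of the wild type. The sites nearest the threshold were Zfpm1 at -1.0 and 1.14 on the inside, and Ldb1 at -0.97 and Nfe2 at 0.87 on the outside. Within 1 kb of the listed TSS lay 4 of the 27 sites, against 39.5% of all sites, and 19 lay within 10 kb (70.4%), against 67.6%. The first count depended on which TSS was listed, since 10 of the 27 (37.0%) lay within 1 kb of a protein-coding TSS of GENCODE M1, against 45.3% of all sites. In the annotation 25 midpoints were in introns and 2 were intergenic, while 8 sites spanned an annotated start of their gene.

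The KLF matches were counted in 101 bp around the midpoint of all sites. The purine form was present at 14 of the 27 sites, against 35.5% of all sites, and the pyrimidine form at 7, against 35.3%. Among the 17 sites that favoured the mutant, 9 held the purine form (52.9%, against 45.8% of all such sites) and 2 the pyrimidine form (11.8%, against 22.8%). Of the 5 that favoured KLF1-ER, 3 held the pyrimidine form (60.0%, against 60.7%) and 1 the purine form (20.0%, against 16.0%). The 5 sites less than 2-fold apart held the purine form at 4 (80.0%, against 28.6% of all such sites) and the pyrimidine form at 2 (40.0%, against 39.2%). No pyrimidine match of these sites had T at position 7. In all, 10 of the 27 windows held neither form, and in 5 sites neither was found over the whole site. The window at 22288 bp in Zfpm1 held 18 purine matches, of which GGGGAGGGG lay apart and all the others overlapped in a run of G.

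**Figure D4:**
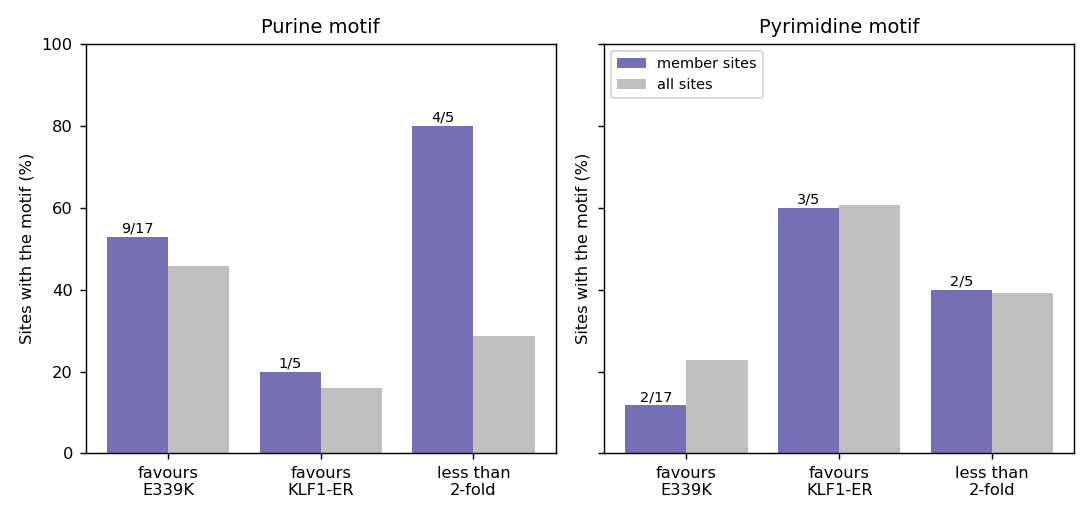
Share of sites (%) with a purine (left) or pyrimidine (right) KLF match within 50 bp of the midpoint, for the sites of these genes and for all sites, by the protein favoured, with the counts above the bars. The purine form is at 9 of 17 sites that favoured KLF1-E339K-ER and the pyrimidine form at 3 of 5 that favoured KLF1-ER.

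GATA and E-box letters were searched in the same windows on both strands. A GATA match (A or T, then GATA, then A or G) was present at 14 of the 27 sites, against 20.6% of all sites, and 7 of the 14 were in Zfpm1. The internal Gata1 site at 1651.5 bp held 3 GATA matches and the Nfe2 site at 3638.5 bp held 4. In the windows printed above, Gata1 upstream, the Zfpm1 intron and the Nfe2 5′ end, whose mutant concentrations ranked 16, 5 and 3, each held 1 GATA match. So did Lmo2 distal and Ldb1 upstream, whose mutant concentrations ranked 535 and 1662. An E-box (CANNTG) was present at 10 of the 27, against 30.5% of all sites. Whether GATA1 or TAL1 was at these sites was not measured.

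Expression of each gene was 1 mean over all 4sU-RNA libraries, those of K1-ER cells included, in log2 CPM, with CPM the reads of a gene scaled to equal library totals, so no value of one cell line and no error could be given. The median over all 11364 genes was 5.27. Zfpm1, at 10.80, ranked 4 of all genes, Gata1 was at 9.79, Tal1 at 9.48 and Gfi1b at 9.21, all above the 99th percentile. Ldb1 was at 7.54 (percentile 89.11), Lmo2 at 6.39 (70.71) and Nfe2 at 5.37 (51.62), while Myb was at 0.93 (8.32). The 7 listed genes with a site were thus all above the median, Nfe2 only narrowly. Myb, the only listed member without a site, was far under it. Whether having a site goes with expression was not tested.

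On the scale of log2 CPM per kb of listed gene length, which for Zfpm1 is the whole gene span with introns, the order of levels was Gata1 at 6.68, Tal1 at 5.86, Gfi1b at 5.56, Zfpm1 at 5.01, Ldb1 at 3.88, Nfe2 at 2.52, Lmo2 at 1.81 and Myb at -4.24, against a median of 0.82. With no value per library, no neighbours in this order could be told apart from the spread. Erythroid markers fixed for this work were listed for 24 of 26 genes with a median of 6.76, whereas 3 of 9 megakaryocyte, 3 of 9 myeloid, 1 of 7 lymphoid, 0 of 4 mast cell and 0 of 4 hepatocyte markers were listed. Within the erythroid list the membrane skeleton genes Sptb (9.24) and Ank1 (9.03) were high, whereas Epb4.9 was at 1.81. The adult globin genes Hbb-b1 (3.87) and Hba-a1 (3.79) lay under the median of all genes. Of the embryonic globin genes, Hbb-bh1 was at 6.74, above that median, Hbb-y at 4.29 and Hba-x at 0.66. Hbb-b2 and Ahsp were not listed. The listed megakaryocyte markers were Itga2b (5.30), Vwf (5.29) and Gp9 (1.79), the first 2 near the median of all genes. The myeloid markers had a median of 0.77, and the lymphoid marker Cd79b was at 0.41.

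**Figure D5:**
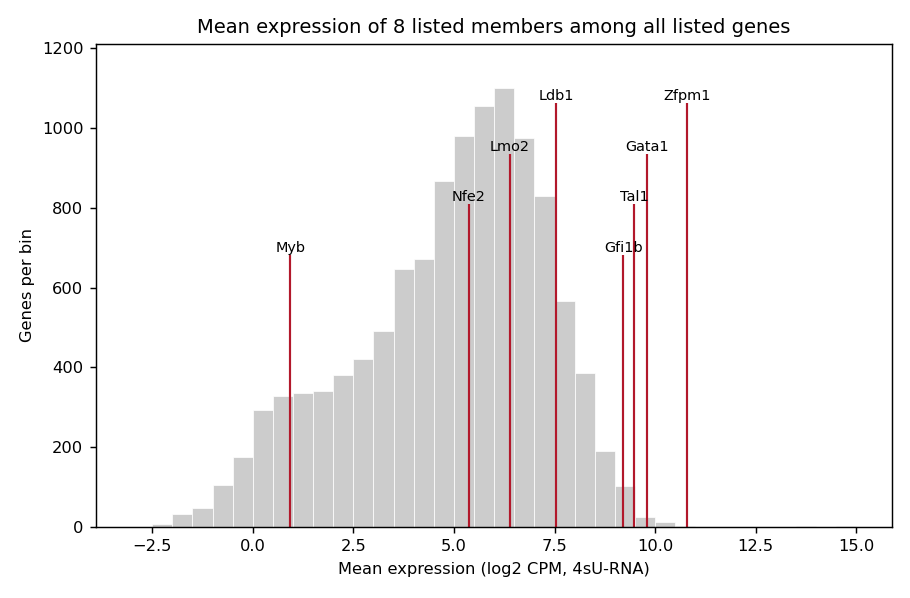
Number of genes per bin of mean 4sU-RNA expression (log2 CPM) for all listed genes, with the 8 listed members as lines of arbitrary height. Zfpm1, Gata1, Tal1 and Gfi1b lie at the upper end, from 9.21 to 10.80, and Myb at 0.93.

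The wider set of 84 red cell transcription factor, cofactor and chromatin genes was examined in the same way. Of these 63 were listed, 45 had a site and 110 sites were assigned to them, of which 69 were higher with the mutant by at least 2-fold (62.7%), 24 with the wild type (21.8%) and 17 with neither, with a median difference of 2.36. Over all 5551 sites the same shares were 61.5% and 28.7% and the median difference was 2.60, so the mutant share of the wider set was close to that of the whole table. Partners of the complex were on both sides. The largest differences towards the mutant within 10 kb were at Chd4, a chromatin remodeller (6.30 for KLF1-E339K-ER), Ep300, an acetyltransferase (6.25), Cbfa2t3, a corepressor of the TAL1 complex (5.92), and Tcf3, the E protein partner of TAL1 (5.84), all with KLF1-ER at -0.09 so that these 4 differences are lower bounds, and at Zbtb7a, a globin repressor (0.91 and 7.04). Rcor1, a corepressor (0.91 and 6.84), had the same listed difference as Tcf3, 5.93. Towards KLF1-ER they were at Ssbp2, an LDB1 partner (4.67 and -0.38), Cbfa2t2 (5.32 and 0.39), Mbd2 (6.33 and 2.05), another site of Zbtb7a (4.72 and 0.88) and Rb1 (5.57 and 2.16). The Ssbp2 difference is a lower bound as well, since -0.38 was the lowest listed value of KLF1-E339K-ER. Ssbp2 and Mbd2 also had sites of the other kind. Of the 4 Ssbp2 sites 3 favoured the mutant, and of the 4 Mbd2 sites 2 did. All 7 Tcf3 sites favoured the mutant.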

How the data were processed

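ChIP DNA and 4sU-labelled RNA were sequenced on the Ion Proton and mapped to mm9 by the authors. TMAP was used for ChIP, and TopHat2 2.0.10 and TMAP for RNA. The counting tool and gene annotation are not given in the sources used here. The deposited expression values are log2 CPM from limma-voom, 1 mean per gene over all libraries of the authors' fit, and the same mean stands in both gene tables. The deposited site values are log2 concentrations that the authors obtained with DiffBind on sites called with MACS2 and GEM, 1 per protein. The deposited tables hold no counts, so the depth is unknown. Their columns of fold changes, test statistics, p-values and false discovery rates of the authors' own comparisons were not used.

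The gene tables were joined on gene identifier, length and mean expression. Differences, counts, percentiles and motif matches were computed with Python 3.11.15, pandas 2.3.3 and numpy 2.4.6. The motif search was tested on simulated data. Start and end are printed as listed, and distances run from the listed TSS to the site midpoint, with the listed sign changed where needed so that upstream follows the strand of the gene. The sequences come from the mm9 reference and gene features from GENCODE M1. Libraries were grouped by their labels. With 1 value per protein no test was possible. Text names all members, and from the wider set the 5 largest differences in each direction within 10 kb. Members and lists were chosen with earlier results of these data known. Alternatives for the fold, the minimum concentration, the distance, the motif window and the scaling of expression were tried, and 4 more were chosen after seeing the data.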

Additional observations from a re-analysis of the deposited data

How the results depend on the processing

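No paired analysis was possible because the tables hold 1 pooled value per protein and no replicate columns. With a 4-fold threshold the sites favouring KLF1-ER fell from 5 to 1 and the genes with such a site from 5 to 1, while 13 sites still favoured KLF1-E339K-ER. Within 10 kb of the TSS 11 sites favoured KLF1-E339K-ER. Within 1 kb there were 2 such sites in 2 genes and 1 site favouring KLF1-ER in 1 gene, whereas within 1 kb of a protein-coding TSS of GENCODE M1, chosen after seeing the data, there were 4 sites in 4 genes and 3 sites in 3 genes. Zfpm1 held 8 of the 17 sites that favoured KLF1-E339K-ER. Without the 10 sites of Zfpm1, an alternative chosen after seeing the data, 9 sites favoured KLF1-E339K-ER and 4 favoured KLF1-ER. These counts rest on fewer sites by construction. The shares of all 5551 sites at these settings are not given, so no trait of these genes can be read from the counts. With T only at position 7 the purine form was at 7 sites and the pyrimidine form at 0, and the pyrimidine form was at 11 sites with 100 bp on either side and at 12 over the whole site. Of the alternative values, 25 stayed within 1.5 times the count (10 points for the expression percentile) and 15 moved further. With the closest protein-coding TSS of GENCODE M1, also chosen after seeing the data, 26 of the 27 sites were shared, the Zfpm1 site far upstream was lost and a Gfi1b site (4.04 for KLF1-ER and 5.34 for KLF1-E339K-ER) came in. Without sites at a lowest listed concentration, another such alternative, 14 sites favoured KLF1-E339K-ER and 5 favoured KLF1-ER. The depth of the libraries is unknown, so the counting error at low concentrations could not be given.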
